A study of Drosophila melanogaster with 2 samples.

Results

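The narrowest peaks of the GAGA factor in Kc cells, those under 300 bp wide, numbered 381 of the 3842 peaks in one list. They were chosen by their measured width, the peak's end minus its start, on every chromosome and scaffold. They made up 9.92% of the list (exact binomial interval 8.99% to 10.9%) and, at 96.7 kb in all, 4.13% of the bases under peaks. The other 3461 peaks, of 300 bp or more, are the set they are compared with.

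The GAGA factor, encoded by Trl in Drosophila melanogaster, binds GA-rich DNA through a zinc finger and joins with other copies of itself through a BTB domain, so that several neighbouring elements can be bound together. It is known for keeping promoters free of nucleosomes, for its part at heat shock and homeotic genes, and for an association with GA-rich satellite repeats in heterochromatin. Peak width in ChIP-seq, which sequences the DNA recovered with an antibody, depends on how many bound elements lie close together, on fragment length, on the strength of the signal and on the peak caller.

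The study recovered chromatin from Kc cells, an established line from embryos, with an antibody named KW3-Trl-D2, and took an aliquot without antibody as input. The title of the input also names K4me3. There was 1 ChIP sample and 1 input sample, neither treated, both fixed with 1.8% formaldehyde for 15 minutes and sonicated for 15 minutes. The growth protocol of the labels is about flies, and how the cells were cultured is not stated there. The peak list belongs to the ChIP sample, and no values of the input were analysed here. Per the design text, ChIP-seq was meant to be replicated, and it is unknown whether the deposited list was made from pooled libraries. With 1 list at hand there is no replicate to compare, so no difference below was tested, and the intervals cover counting error only. They treat peaks as independent, although neighbouring peaks may share signal. The depth behind the list is unknown.

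Narrow peaks were weak by the score that the authors deposited with each peak, a number that rises with the peak caller's confidence and whose scale the file does not state. Their median score was 75.4, with quartiles of 60.4 and 120.7 and extremes of 50.26 and 1465.97. Peaks of 300 bp or more had a median of 489 and began at 50.11, the lowest score of the list. A score under 100 was held by 255 narrow peaks (66.9%) and by 556 wider ones (16.1%). The share of narrow peaks fell from band to band of the score. It was 39.6% of the 225 peaks scored under 60 and 33.7% of the 341 peaks from 60 to 80. It was 20.8% of the 245 peaks from 80 to 100, 12.9% of the 598 from 100 to 200, and 2.01% of the 2433 at 200 or more. Both measures come out of the same peak call, so these values describe the set that the width limit takes and are no separate finding.

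**Figure D1:**
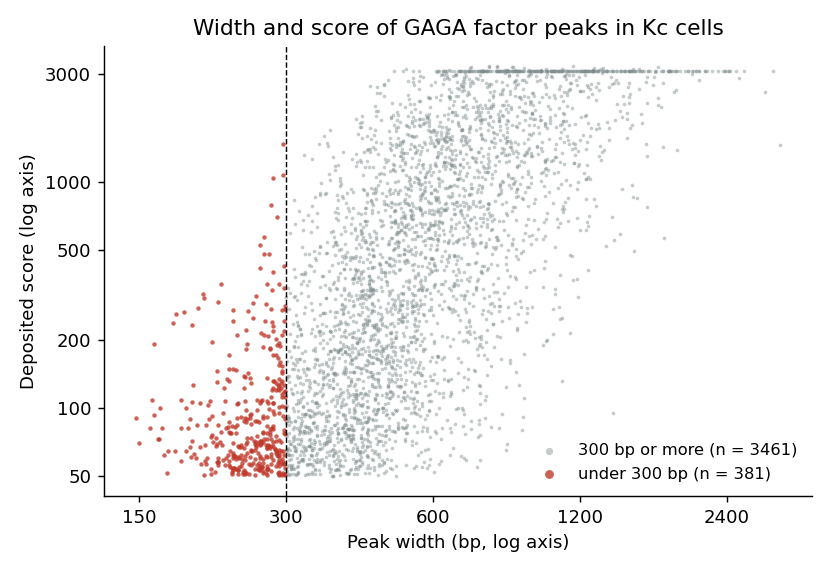
Width in bp and deposited score of each of the 3842 peaks, both on log axes, with the 381 peaks under 300 bp in red and the 3461 others in grey. The dashed line is the limit of 300 bp. Red points crowd between scores of 50 and 100, and 3 of them reach 1000.

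Within the set, widths ran from 148 bp up to the limit with a median of 262 bp, so most members lay nearer to the limit than to the lower end. There were 34 peaks under 200 bp, 120 from 200 bp to under 250 bp and 227 from there to the limit. Their median scores were 81.5, 68.5 and 77.8, and width and score were almost unrelated among the 381 members (Spearman rho 0.12, given as a description). All 49 members with a score of 200 or more were at least 176 bp wide.

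The limit cuts through a continuous range of widths. Just inside it, 9 peaks were narrower than 300 bp by 1 base, with scores from 50.36 to 283.51 and a median of 100.7. Just outside it, 6 peaks were 300 bp wide, with scores from 65.29 to 308.66 and a median of 107. Peaks from 300 bp to under 350 bp had a median score of 93.7, still close to the 75.4 of the narrow set, and those from 350 bp to under 400 bp had 148.

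The narrowest peak lay at 2L:8690474-8690621 (BDGP5, as are all positions here), 148 bp wide with a score of 90.38. It lay 430 bp from a peak of 365 bp that scored 484. The next narrowest, 150 bp wide with a score of 69.97, lay at 3R:25541818-25541967, at 699 bp from a peak of 388 bp. The third, of 158 bp, lay on an unplaced scaffold at Uextra:7308976-7309133 and scored 81.51. The fourth, of 160 bp, lay near the start of its arm at 2R:56991-57150 and scored 108.88. Its nearest peak, at 16.7 kb, was narrow as well, with a width of 193 bp. The fifth, of 161 bp, lay at 3R:7784206-7784366 and scored 191.35, with a peak of 457 bp at 9166 bp. These 5 peaks were thus found both beside wider peaks and far from any.

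A few narrow peaks were strong. The highest score, 1465.97, belonged to a peak of 296 bp at X:14917825-14918120. It outscored its nearest neighbour, a peak of 432 bp at 183 bp with a score of 1065.84. The second, with a score of 1075.79 and also 296 bp wide, lay at X:3590958-3591253, at the right-hand end of a chain of 12 peaks. Its nearest peak, at 738 bp, was 949 bp wide and scored 3100. The third lay at 3L:22715731-22716012, with a width of 282 bp and a score of 1039.94, beside a peak of 396 bp that scored 302.73. Of the 10 highest-scoring members, 8 had another peak under 2 kb away, 5 lay on X and 5 outscored their nearest peak. Among all 49 members scored 200 or more, 53.1% had a peak that close and 16 lay on X. Among wider peaks at such scores the values were 58.3% and 508 of 2384. The 10 are too few for a lean to be read from these counts.

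The other 7 of the 10 highest-scoring members scored from 787.48 down to 423.1. Among them, the peak at 3L:15808684-15808971, with a score of 695.94 and a width of 288 bp, stood 9510 bp from its nearest neighbour. The peak at X:15962419-15962683, with a score of 523.68 and a width of 265 bp, had as its nearest peak another narrow one, of 246 bp, at 4791 bp. The remaining 5 lay at X:7863618-7863897, at 3R:13997859-13998129, at 3R:14140941-14141211, at 2R:10461996-10462272 and at X:16985728-16986025.

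Narrow peaks stood alone more often than wider ones, and a minority flanked a wider peak. The distance from a narrow peak to its nearest peak, counted as bases between the edges, had a median of 4791 bp, with quartiles of 519 and 20105 bp. For peaks of 300 bp or more the median was 1259 bp, with quartiles of 244 and 9163 bp. The median depended on the limit, with 6578 bp for peaks under 250 bp and 2993 bp for those under 350 bp, both above the medians of 1316 and 1227 bp of the peaks beyond each limit. Another peak lay under 2 kb away for 154 narrow peaks, or 40.4% (interval 35.5% to 45.5%). Among wider peaks it did so for 1947, or 56.3% (54.6% to 57.9%). At the other end, 148 narrow peaks (38.8%, interval 33.9% to 43.9%) had no other peak within 10 kb, against 833 wider peaks (24.1%). On the major arms and chromosome 4 alone, without the scaffolds, these shares were 36.4% and 23.8%. The median distances there were 4239 bp for narrow and 1252 bp for wider peaks. The order was the same at shorter range, where 95 narrow peaks (24.9%) and 1258 wider peaks (36.3%) had a neighbour under 500 bp away.

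**Figure D2:**
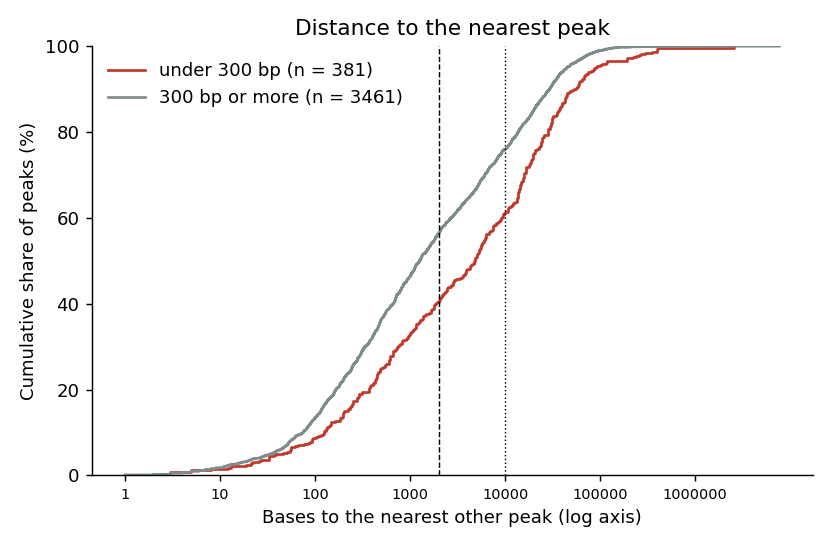
Cumulative share of peaks, in percent, against the number of bases to the nearest other peak on a log axis, for narrow peaks in red and peaks of 300 bp or more in grey. The dashed line is 2 kb and the dotted line 10 kb, where the red curve reaches 40.4% and 61.2% and the grey curve 56.3% and 75.9%.

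Part of an edge-to-edge distance is fixed by width, since a wide peak reaches towards its neighbours. Measured from centre to centre, the shares with a neighbour under 2 kb were 37.3% for narrow peaks and 50.2% for wider ones. Weak peaks were also set against weak peaks. In the band of scores under 60, 41.6% of 89 narrow peaks and 52.9% of 136 wider ones had a neighbour under 2 kb. From 60 to 80 the shares were 40.9% of 115 and 56.2% of 226, and from 80 to 100 they were 39.2% of 51 and 49.5% of 194. From 100 to 200 they were 31.2% of 77 and 50.3% of 521, and at 200 or more 53.1% of 49 and 58.3% of 2384. This last band is open, with median scores of 277 for narrow and 950 for wider peaks. There the bands match scores only loosely.

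The narrow share was thus the lower one in each of the 5 bands. The exact intervals of the 2 widths were apart only from 100 to 200, at 21.1% to 42.7% and 45.9% to 54.7%. If the wider peaks are weighted to the score bands of the narrow ones, 53.6% of them had a neighbour under 2 kb, beside 56.3% of all wider peaks and 40.4% of narrow peaks. The part of the score in this difference was not tested. The narrow share was also the lower one on each of the 5 major arms, from 35.7% against 55.7% on 3L to 48.0% against 56.1% on 2L.

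**Figure D3:**
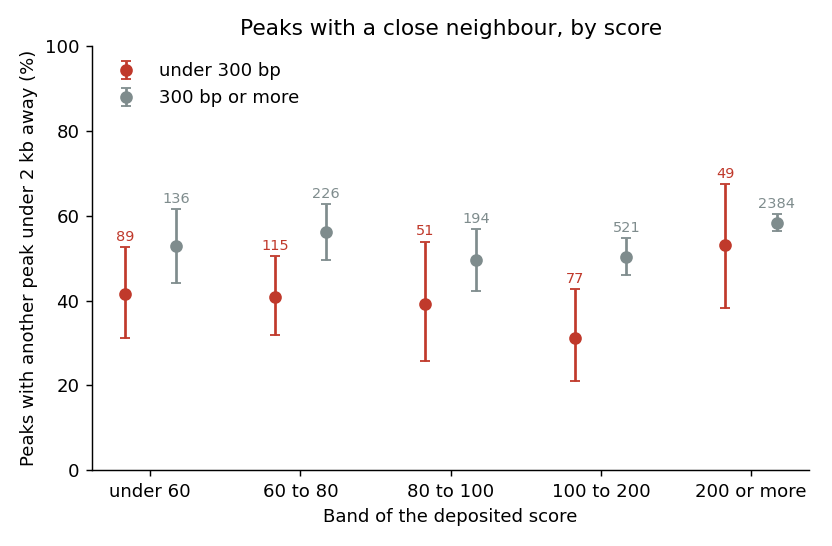
Share of peaks with another peak under 2 kb away, in percent, by band of the deposited score, for narrow peaks in red and peaks of 300 bp or more in grey. Bars are exact 95% binomial intervals and the numbers above them are peaks; red points lie under grey ones in all 5 bands, from 31.2% against 50.3% to 53.1% against 58.3%.

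Inside the set, the narrowest members had a close neighbour least often. A neighbour lay under 2 kb away for 26.5% of the 34 peaks under 200 bp (interval 12.9% to 44.4%), 39.2% of those from 200 bp to under 250 bp (30.4% to 48.5%) and 43.2% of those from 250 bp up (36.6% to 49.9%). The intervals of these 3 classes overlapped. Just beyond the limit the share was 50.6% from 300 bp to under 350 bp and 48.2% from 350 bp to under 400 bp. No neighbour within 10 kb was found for 58.8%, 41.7% and 34.4% of the 3 narrow classes in turn, and for 29.0% of peaks from 300 bp to under 350 bp. The intervals of the 3 classes were 40.7% to 75.4%, 32.7% to 51.0% and 28.2% to 40.9%, and overlapped here too. Scores differed little between members with and without a close neighbour. The 154 with a close neighbour had a median score of 72.9, and the 227 without one had 76.2.

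The members farthest from any peak lay on scaffolds. A pair, Uextra:17026032-17026272 and Uextra:19603855-19604092, were each other's nearest peaks at 2577582 bp. A further pair were those on 2RHet, at 393677 bp from each other, and the other was the Uextra peak from 3094488 to 3094732, at 409576 bp from its neighbour. Uextra joins unplaced pieces of sequence, so distances on it are not distances in the genome. On the major arms and chromosome 4, in a list added after the values were seen, the most isolated were a peak of 259 bp at 2L:10457537-10457795, with a score of 87.07 and no peak within 236 kb, and a peak of 262 bp at 2L:17102483-17102744, with a score of 56.04 and none within 221 kb.

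Where a narrow peak did have a close neighbour, that neighbour was mostly wider and mostly stronger. Of the 154 members with a peak under 2 kb away, the nearest was of 300 bp or more for 137 (89.0%) and narrow for 17 (11.0%). Since 90.1% of the list is of 300 bp or more, a wide nearest peak is what most peaks have. Over all 381 members, whatever the distance, the nearest peak was of 300 bp or more for 82.9% (interval 78.8% to 86.6%), below both that 90.1% and the 91.6% found for wider peaks. On the major arms alone the shares were 86.2% for narrow and 91.9% for wider peaks.

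For the 137 members beside a wide peak, the median width was 271 bp and that of the neighbour 481 bp. The neighbour was under 400 bp wide for 32 members (23.4%) and 1 kb or wider for 8 (5.84%). All peaks of 300 bp or more in the list had a median width of 552 bp, with quartiles of 428 and 766 bp. The median score was 72.8 for the members and 484 for the neighbours. The neighbour had the higher score in 116 cases (84.7%) and the lower one in 21. Among the 92 of these members scored under 100 it was higher for 95.7%. Among the 295 wider peaks scored under 100 with a neighbour of any width under 2 kb it was higher for 88.8%. Only the members were held to neighbours of 300 bp or more, so the shares are not like for like. A stronger neighbour was common beside weak peaks of either width. The scores of the 137 members and of their neighbours were unrelated (Spearman rho -0.040, a description over peaks of 1 list). The neighbours ranged up to the score of 3100, which 8 of them held, and 23 of them (16.8%) scored under 100.

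**Figure D4:**
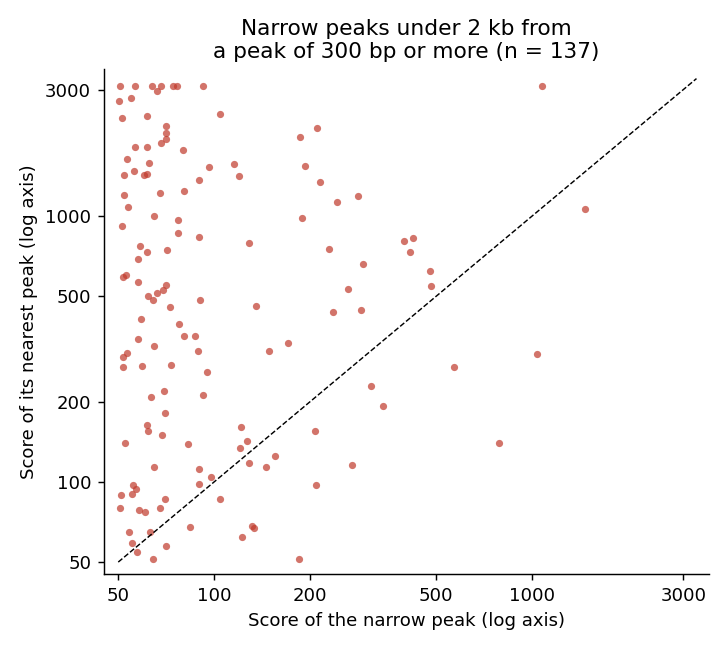
Deposited score of the nearest peak against that of the narrow peak, both on log axes, for the 137 narrow peaks whose nearest peak is of 300 bp or more and under 2 kb away. The dashed line marks equal scores, and 116 points lie above it, spread over nearly the whole range of neighbour scores at narrow scores under 100.

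Gaps between a narrow peak and the nearest peak of 300 bp or more covered the whole range from almost touching to beyond 50 kb. There were 30 members at under 100 bp, 29 from 100 to 250 bp, 27 from 250 to 500 bp, 27 from 500 to 1000 bp and 30 from 1000 to 2000 bp, which is 143 in all (37.5%). A further 43 lay from 2 to 5 kb, 33 from 5 to 10 kb, 118 from 10 to 50 kb and 44 beyond 50 kb. As the bins widen with distance, the number per base was highest at the shortest gaps. This was so for narrow and wider peaks alike, and is not particular to narrow ones. Peaks of 300 bp or more had 12.4% of their number at under 100 bp from another such peak, against 7.87% of the narrow peaks.

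The closest pairs were all but touching. A narrow peak of 244 bp at 3R:2719155-2719398, with a score of 57.31, began 2 bp after a peak of 368 bp that scored 54.5. On 2L from 11066210 to 11066498, a peak of 289 bp with a score of 61.37 ended 3 bp before one of 885 bp with a score of 2394.06. On the same arm, at 2L:5093415-5093676, a peak of 262 bp with a score of 97.81 lay 3 bp from one of 547 bp that scored 104.83. Of these, the pair at 11066210 joined a weak peak to a strong one, while the partners in the other two had like scores. Both other pairs were of a weak narrow peak and a strong partner, at 5 bp each. They were a peak of 298 bp at 2R:11990092-11990389, which scored 51.26 beside 921.78, and one of 254 bp at 3R:1090190-1090443, which scored 56.07 beside 1480.31. Whether the caller divided 1 enriched stretch in such cases was not tested. With peaks closer than 100 bp merged, 348 regions were still under 300 bp wide, and 34.8% of them had a neighbour under 2 kb, against 49.6% of wider regions.

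Flanking was mostly on 1 side, as it was for wider peaks. Of the 154 members with a close neighbour, 126 had it on 1 side and 28 (18.2%) on both, against 447 of 1947 wider peaks with a close neighbour (23.0%) on both. Among the narrow peaks, 25 of these 28 had a peak of 300 bp or more under 2 kb away on each side. Joined into chains at gaps under 2 kb, the list held 813 chains of 2 or more peaks, and 139 of them (17.1%) contained a narrow peak. Narrow peaks were 13.0% of the 1741 single peaks, 8.44% of peaks in pairs, 6.18% of peaks in chains of 3 and 6.24% of those in chains of 4 or more. In chains of 3 or more they were 6.47% of the 572 peaks at an end (interval 4.59% to 8.81%) and 5.89% of the 475 inside (3.95% to 8.41%), so no lean towards the ends was detectable at these numbers.

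Some narrow peaks followed one another. There were 9 stretches of consecutive narrow peaks at gaps under 2 kb, 8 of 2 peaks and 1 of 3, with 19 members in all. Narrow peaks were 7.33% of the 2101 peaks in chains, and 9.92% of the whole list. The stretch of 3 lay on 2L, with peaks at 2L:2363502-2363679, 2L:2363792-2364026 and 2L:2364060-2364265, of 178, 235 and 206 bp and scores of 64.74, 54.36 and 83.82. It belonged to a chain of 5 peaks and began 93 bp from a peak of 830 bp that scored 1006. Chromosome 4 held 2 of the 8 pairs.

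Narrow peaks made up a larger share of the few peaks on chromosome 4 and the heterochromatin scaffolds than of those on the major arms. On the 5 major arms, 354 of 3787 peaks were narrow, or 9.35% (interval 8.44% to 10.3%). On chromosome 4, a small and largely heterochromatic chromosome, it was 11 of 26, or 42.3% (23.4% to 63.1%). On the heterochromatin scaffolds, which hold the repeat-rich sequence next to the centromeres that could be assembled, it was 12 of 20, or 60% (36.1% to 80.9%). On the unplaced scaffolds it was 4 of 9, or 44.4% (13.7% to 78.8%), all 4 on Uextra. Together these places held 27 narrow peaks, 7.09% of the set, and 28 wider ones, 0.809% of the wider peaks. As shares of the set, chromosome 4 had 2.89% of narrow peaks against 0.433% of wider ones, and the heterochromatin scaffolds had 3.15% against 0.231%. These shares moved with the limit. At 250 bp they were 4.55% of narrow peaks on chromosome 4 and 5.19% on the heterochromatin scaffolds, and at 350 bp 1.88% and 2.03%.

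**Figure D5:**
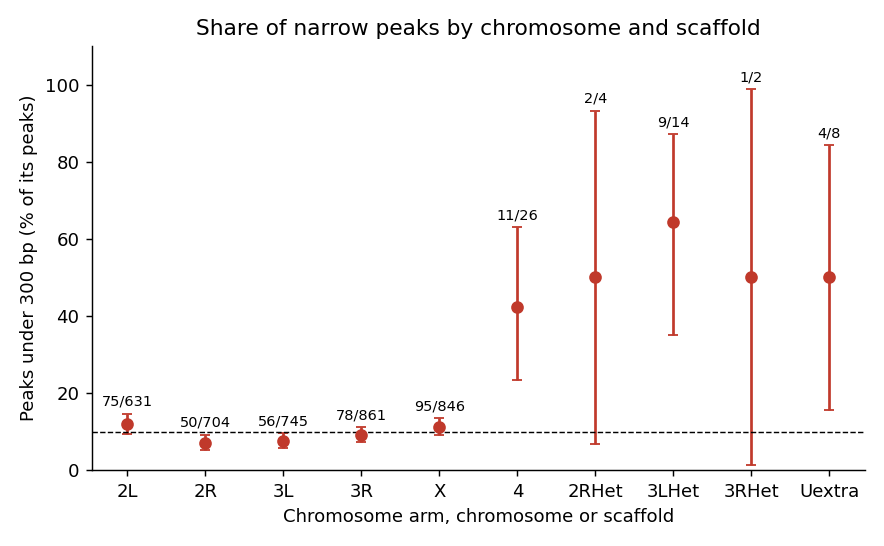
Peaks under 300 bp as a percentage of the peaks of each arm, chromosome or scaffold, with exact 95% binomial intervals; the numbers above are narrow peaks and all peaks. The dashed line is the 9.92% of the whole list. The 5 major arms lie between 7.10% and 11.9%, chromosome 4 is at 42.3% and 3LHet at 64.3%, with wide intervals for places with few peaks.

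Peaks of these places were also weaker than those of the major arms, with median scores of 157 on chromosome 4, 120 on the heterochromatin scaffolds and 386 on the major arms. The part of the score in their narrow share was not tested. If each score band had the narrow share of the major arms, 3.28 of the 26 peaks on chromosome 4 and 3.42 of the 20 on the heterochromatin scaffolds would be narrow, against 11 and 12 in the list. Among peaks scored under 100, 7 of 9 on chromosome 4 and 8 of 9 on the heterochromatin scaffolds were narrow, against 237 of 789 (30.0%) on the major arms. Of the 34 peaks under 200 bp, 6 (17.6%) lay on chromosome 4 or a scaffold, against 21 of the 347 others (6.05%). These 6 are too few for a lean of the very narrow members to be read.

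On chromosome 4 the 11 narrow peaks were from 165 to 286 bp wide, with a median of 234 bp, and scored from 54.5 to 210.15. The strongest, of 238 bp, lay from 204287 to 204524, at 1658 bp from a peak of 333 bp that scored 97.81. The peaks from 925394 to 925626 and from 925848 to 926111, of 233 and 264 bp, formed a pair with a gap of 221 bp and scores of 54.5 and 86.52. Another narrow peak, from 928351 to 928619, followed at 2239 bp and lay 927 bp from a peak of 391 bp that scored 865.1. A second pair, from 1260064 to 1260297 and from 1260762 to 1260991, of 234 and 230 bp, had a gap of 464 bp and scores of 61.66 and 170.53. These 5 peaks lie at the higher coordinates of the chromosome, as does the peak from 980809 to 981040, which was 232 bp wide, scored 77.75 and lay 50.9 kb from any other.

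The remaining 4 on chromosome 4 had lower coordinates. They lay from 159603 to 159793 with a score of 89.42, from 332327 to 332601 with 107.65, from 395210 to 395374 with 72.92 and from 575561 to 575846 with 119.93. A neighbour under 2 kb was found for 7 of the 11 narrow peaks (63.6%, interval 30.8% to 89.1%) and for 10 of the 15 wider ones (66.7%, 38.4% to 88.2%), a difference not detectable at these numbers. A peak of 300 bp or more was under 2 kb away for 3 of the 11, and the other 4 with a close neighbour belonged to the narrow pairs.

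On the heterochromatin scaffolds the narrow peaks stood alone, as did the wider ones. Of the 12, only the peak at 3RHet:791516-791701 had a neighbour within 10 kb. It was 186 bp wide, scored 264.08 and lay 275 bp from a peak of 423 bp that scored 530.92. The other 11 lay from 60369 to 393677 bp from their nearest peak, and 10 of the 12 had a narrow peak as the nearest. Narrow peaks were 12 of the 20 peaks on these scaffolds. Some of the 10 were each other's nearest, and such pairs are counted from both sides. Of the 8 wider peaks, 7 also had none within 10 kb.

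3LHet held 9 of the 12 narrow peaks among its 14 peaks, from 193 to 276 bp wide. The highest scores there were 318.44 for a peak of 203 bp from 2258503 to 2258705 and 243.08 for one of 234 bp from 2197900 to 2198133, which were each other's nearest at 60369 bp. Another, of 200 bp from 1691282 to 1691481, scored 104.59. The other 6 scored from 58.76 to 73.37 and lay from 248129 to 248321, from 595589 to 595811, from 1277298 to 1277547, from 1395273 to 1395535, from 2130459 to 2130701 and from 2512188 to 2512463. On 2RHet the peaks from 105744 to 105912 and from 499590 to 499847, of 169 and 258 bp, scored 62.11 and 71.54. On Uextra the 4 narrow peaks scored from 50.89 to 104.06.

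Among the major arms the narrow share was higher on 2L and X than on 2R and 3L. It was 11.9% on 2L (75 of 631 peaks, interval 9.46% to 14.7%), 11.2% on X (95 of 846, 9.18% to 13.6%) and 9.06% on 3R (78 of 861, 7.23% to 11.2%). It was 7.52% on 3L (56 of 745, 5.73% to 9.65%) and 7.10% on 2R (50 of 704, 5.32% to 9.26%). Only the intervals of 2L and 2R, the ends of this order, were apart. Those of every other pair of arms overlapped, including X with 2R, X with 3L and 2L with 3L. At the score-band shares of the other major arms, 64.9 narrow peaks would lie on 2L, 75.5 on X, 64.6 on 2R, 66.9 on 3L and 80.3 on 3R.

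The narrow peaks of 2L scored lower than those of X by their medians, but this was not particular to 2L. The medians on 3R, 2R and 3L were 68.1, 78.15 and 88.2. On 2L, 62 of 75 (82.7%) scored under 100 and the median was 68.4. On X, 57 of 95 (60%) did so and the median was 83.1. X held 38 of the 126 narrow peaks with a score of 100 or more (30.2%, interval 22.3% to 39.0%). Of the 2905 wider peaks in that range it held 21.7%. At 200 or more it held 16 of the 49 narrow peaks and 508 of the 2384 wider ones. 2L held 24.3% of the narrow peaks scored under 100 and 10.3% of those at 100 or more. It also held 107 of the 556 wider peaks scored under 100. Of the wider peaks on 2L, 19.2% scored under 100, against 16.1% of all wider peaks, so this lean was not particular to narrow peaks. As a share of all narrow peaks, X had 24.9% (20.7% to 29.6%) and of all wider ones 21.7%.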

How the data were processed

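Chromatin of Kc cells was immunoprecipitated and sequenced in 1 ChIP sample, with 1 input sample, grouped by the fraction in the labels. Reads were aligned with Bowtie to BDGP5, per the submitters' processing notes, and MACS called the peaks, per the file headers. No source used here states versions, settings, depth or pooling. The deposited list gives the position and a score per peak. The score was used as the authors deposited it. No 2 peaks overlapped, and none was filtered out.

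Width, gaps between edges, the nearest peak and chains at gaps under 2 kb were computed in Python 3.11.15, using pandas 2.3.3 for the tables, NumPy 2.4.6 for gaps, SciPy 1.17.1 for intervals and Matplotlib 3.10.9 for figures. Distances were checked on simulated lists. Intervals are exact (Clopper-Pearson) at 95%. Positions are 1-based. The members, score bands and comparisons were chosen with earlier results of these data known. Regions named are the 10 highest-scoring and 5 narrowest members, all on chromosome 4 and scaffolds, the 5 closest to a wider peak, the 5 farthest from any, and the longest stretches of consecutive narrow peaks. Alternatives changed the width limit, score minimum, chromosomes, distance and merging. The annotation at hand is of another assembly, so genes and sequence under the peaks were not analysed here.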

Additional observations from a re-analysis of the deposited data

How the results depend on the processing

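Of 55 recomputed values, 37 stayed within the exact 95% interval of the value reported, or within 1.5 times for a number of peaks, and 18 moved further. In all 50 that can be set against wider peaks, narrow peaks stayed on the same side of them. The 50 are cuts of 1 list that share many peaks, so they are not independent. They include 5 median scores, which come out of the same peak call as width. For the share on X, the reported interval of 20.7% to 29.6% includes the 21.7% of wider peaks. The number of narrow peaks was 154 at a width limit of 250 bp, 691 at 350 bp and 126 at scores of 100 or more. The share with another peak under 2 kb was 32.5% at scores of 100 or more (wider peaks 49.9%) and 34.8% after merging. At other distances it was 24.9% under 500 bp, 32.8% under 1 kb and 50.9% under 5 kb, by construction. The median distance to the nearest peak was 6577.5 bp at 250 bp and 7150.5 bp at scores of 100 or more. The share with no peak within 10 kb was 45.5% at 250 bp. The share whose nearest peak reaches the width limit was 75.7% at 350 bp (wider peaks 84.4%). At scores of 100 or more it was 89.7% (wider peaks 96.6%). The share with a wider peak nearby was 32.5% at scores of 100 or more (wider peaks 49.1%) and 22.6% under 500 bp (wider peaks 34.2%). The median score was 83.0 at 350 bp and 162.6 at scores of 100 or more, where the share on X was 30.2%. Fewer or more peaks enter at other width and score limits; beyond that the cause was not tested. The planned search for GAGAG was not run, as it needs BDGP5 sequence. No paired analysis was possible because ChIP has 1 sample and 1 list, which also means that no replicate can be left out. With depth unknown, the weak peaks are the least certain.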

Other observations

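The narrow peaks fell in 307 windows of 100 kb, of which 249 held 1 narrow peak, and 65.4% of the set lay in these. The windows with the most held 5 each, on 3L from 18000001 to 18100000 among 20 peaks and on X from 14900001 to 15000000 among 13. A window on chromosome 4 from 900001 to 1000000 and one on X from 18000001 to 18100000 each held 4 narrow peaks among 5. These windows were picked after their values were seen.

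Within the major arms, the centromere-proximal 2 Mb held 24 narrow peaks among 203, or 11.8% (exact interval 7.72% to 17.1%), against 9.21% of the 3584 peaks elsewhere (8.28% to 10.2%). The share was the higher one near the centromere on 2L, 2R, 3L and 3R and the lower one on X, with 3 to 7 narrow peaks per arm. Both shares were under the 60% of the heterochromatin scaffolds. The ends of 2L, 3L and X were taken as their last peak.

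The 160 peaks of 300 bp or more with a narrow peak directly beside them, under 2 kb away, had medians of 490 bp for width and 497 for score. The 1787 whose close neighbours were all of 300 bp or more had medians of 578 bp and 598.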
